A study of Rattus norvegicus with 30 samples.

Results

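Rat bone marrow mesenchymal stem cells (BMSCs) kept for 12 h in osteogenic medium (OS) were compared directly with cells kept for 12 h in adipogenic medium (AD). The comparison used the 3 samples titled OS_12h_1 to OS_12h_3 and the 3 titled AD_12h_1 to AD_12h_3, 6 of the 30 samples of the series. The series also held 3 samples at 0 h, and 3 samples each for OS and AD at 3 h and 72 h and for chondrogenic medium at 3, 12 and 72 h. All were unsorted primary cells of Sprague Dawley rats with no engineered allele named in the labels. According to the methods of the study, they came from the femurs and tibias of 3 female rats aged 3 weeks and were induced at passage 2 with commercial media, whose contents were not given in the sources used here. Each sample was a pool of 3 cultures, and whether the 3 samples of a group came from different rats was not stated, so the p-values below measure the spread between pools.

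Osteoblasts and adipocytes share a precursor in the marrow stroma. Osteogenic commitment runs through Runx2 and Sp7 and ends in a cell that secretes and mineralizes matrix, whereas adipogenic commitment runs through C/EBP factors and Pparg and ends in a cell that stores triglyceride. Adipogenic media usually hold a glucocorticoid, insulin and an agent that raises cyclic AMP, and osteogenic media usually hold ascorbate, a phosphate source and often a glucocorticoid as well. Neither mature cell type forms within hours, so that a comparison at 12 h reads the early response to the media.

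Expression is given in CPM, the reads of a gene per 1000000 reads of the sample, where 3 reads were 0.439 to 0.555 CPM in these samples. The totals behind the values were 6564527 to 6690194 reads in OS and 5405033 to 6836525 reads in AD. The listed genes held 68.7 to 71.4% of those reads in OS, and 64.6, 54.2 and 54.3% in AD_12h_1, AD_12h_2 and AD_12h_3. The groups did not overlap in this share, and the exact permutation test (2-sided) gave p = 0.1, the smallest that 3 against 3 samples allow.

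AD_12h_1 lay between the other 2 AD samples and the OS samples. Each sample was placed on the genes called without it, on a scale where 0 was the mean of the other medium and 1 the mean of its own 2 remaining replicates. Over 739 genes AD_12h_1 had a median position of 0.61, against 1.08 and 1.12 for AD_12h_2 and AD_12h_3 and 0.96 to 1 for the OS samples. It lay strictly between both groups for 68.2% of those genes, whereas for the other 5 samples the share was 16.2 to 43.1%. Across all 4363 genes tested, its root mean square distance on the log2 scale was 0.55 to the other AD samples and 0.69 to the OS samples, so its own group remained the nearest of the 10 groups. It was not intermediate for every gene, since it lay beyond both other AD samples for 5.82% of the 739. Results are therefore given with and without it.

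**Figure D1:**
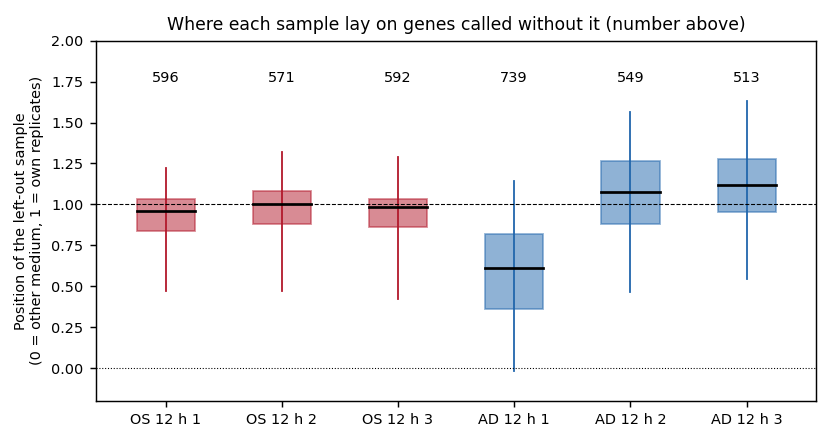
Position of each 12 h sample between the other medium (0) and its own 2 remaining replicates (1) over the genes called without that sample, whose number stands above. Boxes span the quartiles, lines the 5th to 95th percentile and black bars the median. AD_12h_1 has a median of 0.61 while the other 5 samples have medians of 0.96 to 1.12.

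The cells were checked against markers. Thy1, a surface marker of stromal cells, was at 5253, 5570.2 and 5450.4 CPM in the OS samples and 6057, 5086 and 4666 CPM in the AD samples (log2 difference 0.05, adjusted p = 0.79). The stromal markers did not all stay level, since 5 of 6 tested had a positive log2 difference, 2 were called higher in OS, and their summed level was 26792 to 27536 CPM in OS and 13910.4 to 18601 CPM in AD. Summed over each list, the markers of macrophages, endothelium, osteoclasts and blood cells reached at most 6.11, 2.39, 1.46 and 0.457 CPM in any of the 6 samples. Among osteoblast genes Sp7 and Spp1 were listed at 0 in all 6 samples and Alpl in 5 of 6. Among adipocyte genes Cd36 and Cidec were listed at 0 in all 6, and Pparg at no more than 0.603 CPM. Other members of both lists were not low. The osteoblast list summed to 698 to 760 CPM in OS and 690 to 893 CPM in AD. The adipocyte list summed to 20651.5 to 21977 CPM in OS and 15528 to 22620 CPM in AD. A low listed value cannot be read as absence, however, because genes that nearly all cells use were also near 0. Actb reached 1.98 CPM, Vim 1.36, Hsp90ab1 0.74 and Ppia 0.439 CPM at most in the 6 samples, and Tpi1 was listed at 0 in all of them. These genes were picked after their values were seen.

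A gene was called at a log2 difference of at least 1 in size and an adjusted p under 0.05. Of 4363 genes tested, 574 (13.2%) were called between OS and AD at 12 h, 305 (6.99%) higher and 269 (6.17%) lower in OS. The log2 difference was at least 2 in size for 63 and 60 genes, and at least 3 for 16 and 14. All 3 OS samples lay on one side of all 3 AD samples for 1963 genes, 45% of those tested, and for 558 of the 574. Without AD_12h_1 the count was 739 (16.9%), 404 (9.26%) higher and 335 (7.68%) lower. Of the 574, 542 stayed called in the same direction, 32 were lost and 197 others were added. A count model (edgeR) on the recovered reads called 766 genes, 313 higher and 453 lower, so that the share of higher genes was 40.9% rather than 53.1%. The samples are bulk RNA, so that fewer cells of a kind and less RNA per cell cannot be told apart.

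The 0 h samples show on which side the media differed. Among the 305 genes higher in OS, the 0 h mean lay between both media for 158, below both for 121 and above both for 26. It was nearer to AD for 220 of them. Among the 269 genes lower in OS it lay between for 168, above both for 64 and below both for 37, and it was nearer to AD for 161. These positions are descriptions and were not tested.

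Of the genes that cells switch on in low oxygen and the glycolytic enzymes, 10 of 21 tested were called and all 10 were higher in OS, a share of 47.6% beside 13.2% of all genes. The set includes the prolyl hydroxylases that mark hypoxia-inducible factor (HIF) for destruction, and HIF in turn raises transcription of several glycolytic enzymes and of some of its own regulators. Without AD_12h_1 the count was also 10 higher and 0 lower. The median log2 difference of the list was 0.77, against 0.03 over all tested genes. With edgeR 10 members were higher and 1 was lower.

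The promoters of 5 called members are printed here with ACGTG on either strand in capitals. These letters are a common form of the core of the hypoxia response element, and other forms were not searched. They run from 250 bases before to 50 bases after a start site of RefSeq on rat assembly GRCr8, read 5′ to 3′ along the transcribed strand. The run CACGTG, an E box, holds ACGTG on both strands. Egln3 is shown as the member with the largest difference, Bhlhe40, Bnip3 and Pdk1 as the next 3 by size, and Ldha as a glycolytic enzyme with several matches.
Egln3 (chr6:77410966-77411265, minus strand): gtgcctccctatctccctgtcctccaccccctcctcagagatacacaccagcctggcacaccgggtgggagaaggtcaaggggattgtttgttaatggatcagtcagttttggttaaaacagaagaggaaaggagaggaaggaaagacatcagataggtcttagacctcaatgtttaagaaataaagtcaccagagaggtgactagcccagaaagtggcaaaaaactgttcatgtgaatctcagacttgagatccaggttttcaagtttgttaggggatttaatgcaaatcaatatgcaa
Bhlhe40 (chr4:143174200-143174499, plus strand): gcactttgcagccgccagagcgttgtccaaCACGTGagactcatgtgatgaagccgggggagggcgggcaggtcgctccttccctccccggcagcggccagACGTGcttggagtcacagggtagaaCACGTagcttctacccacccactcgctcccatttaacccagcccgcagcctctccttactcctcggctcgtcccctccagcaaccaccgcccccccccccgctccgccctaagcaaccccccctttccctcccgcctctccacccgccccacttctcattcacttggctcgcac
Bnip3 (chr1:203154913-203155212, minus strand): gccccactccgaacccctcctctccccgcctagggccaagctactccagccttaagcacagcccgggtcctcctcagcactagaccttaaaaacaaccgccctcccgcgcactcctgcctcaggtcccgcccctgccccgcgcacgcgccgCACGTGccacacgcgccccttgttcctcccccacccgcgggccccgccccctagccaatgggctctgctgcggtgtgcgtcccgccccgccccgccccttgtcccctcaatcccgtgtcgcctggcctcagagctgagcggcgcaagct
Pdk1 (chr3:77113264-77113563, plus strand): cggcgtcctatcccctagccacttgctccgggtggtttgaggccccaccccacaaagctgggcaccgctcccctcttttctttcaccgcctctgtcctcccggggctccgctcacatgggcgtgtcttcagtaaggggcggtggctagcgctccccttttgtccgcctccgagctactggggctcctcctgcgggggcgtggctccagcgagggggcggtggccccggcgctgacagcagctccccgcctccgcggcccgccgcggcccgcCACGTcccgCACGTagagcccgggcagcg
Ldha (chr1:106507842-106508141, plus strand): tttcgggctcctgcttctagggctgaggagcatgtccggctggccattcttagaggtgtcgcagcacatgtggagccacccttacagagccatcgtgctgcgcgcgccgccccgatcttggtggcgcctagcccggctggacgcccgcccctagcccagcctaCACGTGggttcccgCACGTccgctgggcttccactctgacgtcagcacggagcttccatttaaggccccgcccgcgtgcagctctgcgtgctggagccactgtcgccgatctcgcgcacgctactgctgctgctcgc
The letters occurred in the windows of Bhlhe40, Bnip3, Pdk1 and Ldha and not in that of Egln3. Of the 10 called members 9 had a window in the RefSeq table, and 6 of these 9 held ACGTG in at least 1 window. Of the 11 tested members that were not called, 9 had a window and 8 held it. The share was 25.5% of the 3206 tested genes with a window and 19.3% of all 33469 windows, so the letters were common in the list as a whole and not more frequent in its called members. A match is a description of the sequence and not a measured binding site.

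Egln3, the prolyl hydroxylase PHD3, was at 237, 248 and 248 CPM in the OS samples and 3.22, 6.63 and 6.48 CPM in the AD samples, with 150.3 to 168 CPM at 0 h. The OS samples were 44.9 times the AD samples by their means, 244 ± 6.32 against 5.44 ± 1.93 CPM (SD, n = 3), and the groups lay far apart (log2 difference 5.30, SE 0.23, adjusted p = 2.7e-17; 5.02 without AD_12h_1). Bnip3, which drives mitophagy in low oxygen, was at 292, 326 and 309 CPM in the OS samples and 72.3, 60.8 and 60.1 CPM in the AD samples (log2 difference 2.25, adjusted p = 7.6e-15). OS was above the 0 h samples for Egln3 and below them, at 342 to 347 CPM, for Bnip3. In the chondrogenic samples at 12 h the genes were at 1.59 to 2.69 and 39.7 to 42.5 CPM, below every AD sample.

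Pdk1, the kinase that turns pyruvate away from the mitochondria, was at 401, 423 and 431 CPM in the OS samples and 155, 117 and 112 CPM in the AD samples (log2 difference 1.72, adjusted p = 7.3e-14). Pgk1, a glycolytic enzyme that makes ATP, was at 3148, 3456 and 3375 CPM in the OS samples and 1359.9, 1007 and 941 CPM in the AD samples (log2 difference 1.61, adjusted p = 1.6e-09). Ldha, which turns pyruvate into lactate, was at 6319, 6568 and 6628 CPM in the OS samples and 3342, 2194 and 2174 CPM in the AD samples (log2 difference 1.37, adjusted p = 8.1e-09). For these 3 enzymes AD_12h_1 was the highest of the AD samples, and the difference was larger without it, at 1.86, 1.77 and 1.57. Eno1, Pkm, Slc16a3 and Bhlhe41 were called at low listed values, below 22 CPM in all 6 samples. Of the members not called, Gpi was at 2022, 2234 and 2025 CPM in the OS samples and 1537, 1305 and 1272 CPM in the AD samples (log2 difference 0.61). Epas1, which encodes HIF-2 alpha, was at 1385, 1439.7 and 1349 CPM in the OS samples and 2325, 1374 and 1470.1 CPM in the AD samples, and the groups overlapped. Hif1a was listed at 1.1 CPM at most.

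**Figure D2:**
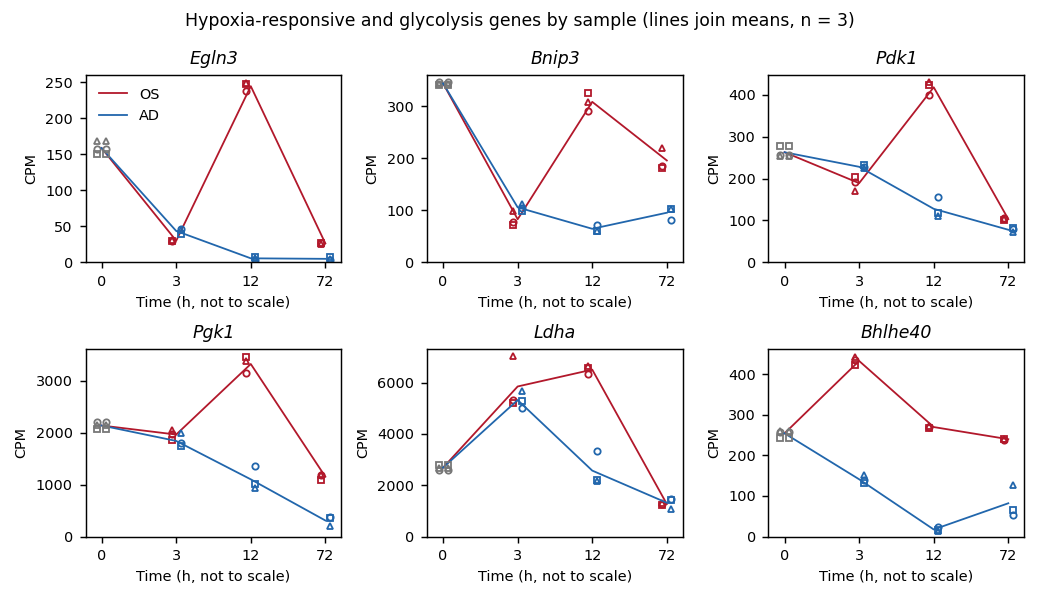
CPM of 6 called hypoxia-responsive and glycolysis genes in each sample at 0, 3, 12 and 72 h (hours on the horizontal axis, not to scale). Circles, squares and triangles are replicates 1, 2 and 3, grey at 0 h, red for OS and blue for AD, and lines join the means. At 12 h all 3 OS samples lie above all 3 AD samples for each of the 6 genes.

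At 3 h Egln3 was at 29 to 30.6 CPM in OS and 39.5 to 46.2 CPM in AD, and the log2 difference between media was -0.52. Its difference at 12 h exceeded that at 3 h by 5.82 (SE 0.32, adjusted p = 6.4e-14) and that at 72 h by 2.99 (adjusted p = 4e-08). For Ldha the difference at 12 h exceeded that at 3 h by 1.24 (adjusted p = 4.2e-05) and that at 72 h by 1.41 (adjusted p = 4.8e-06). At 72 h 9 of the 21 members were called between the media in either direction, 42.9% beside 13.7% of all genes at that time. Of those called at 12 h, these were Egln3, Pgk1, Bhlhe40 and Bnip3, at log2 differences of 2.31, 1.95, 1.64 and 1.03, while Ldha was at -0.04 and Eno1 at 0.01. Of the 10 called members, the difference at 12 h differed by the test from that at 3 h for 8 and from that at 72 h for 7. Over all 574 called genes, which like these were chosen by a large difference at 12 h, the numbers were 267 (46.5%) and 248 (43.2%).

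The 28 genes with the largest differences, 14 in each direction, are given with their value in every sample. The 14 higher in OS fall into receptors at the cell surface, regulators inside the cell, and enzymes and matrix or stress proteins. In all 28 the groups did not overlap, which the choice of the genes required. All 28 were also called without AD_12h_1.

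Among receptors, Ccr1, which binds inflammatory CC chemokines, was at 222, 222 and 208 CPM in the OS samples and 5.12, 3.5 and 2.41 CPM in the AD samples (log2 difference 5.59, SE 0.28, adjusted p = 8.7e-16). At 0 h it was at 69.1 to 79.2 CPM, above AD and below OS. F2rl1, the protease-activated receptor PAR2, was at 46.9, 55.8 and 44.3 CPM in the OS samples and 2.49, 0 and 0.185 CPM in the AD samples, and the OS samples were also above the 5.44 to 6.52 CPM of 0 h (log2 difference 4.95, and 5.51 without AD_12h_1). Gprc5a, an orphan receptor induced by retinoic acid, was at 67, 63.1 and 60.5 CPM in the OS samples and 2.93, 0 and 0.925 CPM in the AD samples (log2 difference 5.04). Tnfrsf12a, the receptor for the cytokine TWEAK, was at 926, 1004 and 924 CPM in the OS samples and 162, 62.2 and 69.4 CPM in the AD samples (log2 difference 3.41, and 3.83 without AD_12h_1). AD_12h_1 stood above the other AD samples for F2rl1, Gprc5a and Tnfrsf12a, but far below OS.

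Among regulators, Bhlhe40, a repressor that acts in the circadian clock and is raised by low oxygen, was at 271, 267 and 272 CPM in the OS samples and 22.8, 15.1 and 14.4 CPM in the AD samples (log2 difference 3.91, adjusted p = 1.5e-16). OS was slightly above the 244 to 261 CPM of 0 h, and the chondrogenic samples reached 583 to 702 CPM. Dusp4, a phosphatase that switches off MAP kinases, was at 84.7, 85.3 and 80.0 CPM in the OS samples and 3.66, 4.42 and 6.48 CPM in the AD samples (log2 difference 3.88). Hopx, a homeodomain protein that does not bind DNA, was at 14.3, 13.6 and 13.7 CPM in the OS samples and 1.17, 0.184 and 0.185 CPM in the AD samples and at no more than 0.975 CPM at 0 h. Its AD samples held 8, 1 and 1 reads, and the size of its log2 difference (3.36) depends on the pseudocount.

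Gldn, a secreted olfactomedin-domain protein known from the nodes of myelinated axons, was at 137, 137 and 135 CPM in the OS samples and 4.1, 3.13 and 1.85 CPM in the AD samples (log2 difference 5.13, adjusted p = 3.4e-12). It was at 1.11 to 1.86 CPM at 0 h and 168 to 181 CPM in the chondrogenic samples, so that the chondrogenic samples were on the side of OS. Cspg4, the NG2 proteoglycan of pericytes, was at 140.0, 145 and 143 CPM in the OS samples and 30.6, 8.29 and 9.07 CPM in the AD samples (log2 difference 3.32). Cryab, a small heat shock protein, was at 587, 607 and 572 CPM in the OS samples and 118, 35.9 and 39.6 CPM in the AD samples (log2 difference 3.39). Without AD_12h_1 the differences of Cspg4 and Cryab were 3.89 and 3.93.

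Gch1, the first enzyme of tetrahydrobiopterin synthesis, was at 31.6, 27.5 and 28 CPM in the OS samples and 2.49, 0.921 and 1.48 CPM in the AD samples (log2 difference 3.56). Cyp3a9, a cytochrome P450, was at 21.2, 20.3 and 23 CPM in the OS samples and 2.78, 0.368 and 0.925 CPM in the AD samples (log2 difference 3.39) and at no more than 0.279 CPM at 0 h. Mettl7b, a methyltransferase, was at 15.5, 14.2 and 11.7 CPM in the OS samples and 0.731, 0 and 0 CPM in the AD samples (log2 difference 3.62), with 5, 0 and 0 reads in the AD samples. For these 3 enzymes each OS sample was above every AD and every 0 h sample.

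**Figure D3:**
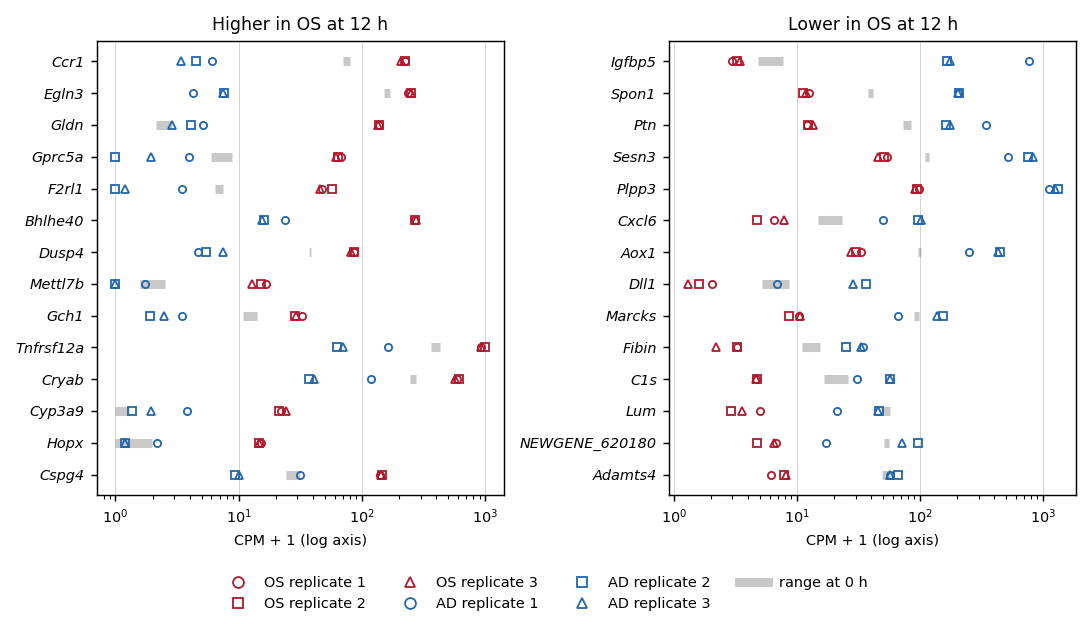
CPM + 1 on a log axis of the 14 genes with the largest difference in each direction. Red symbols are the OS samples, blue symbols the AD samples, with circles, squares and triangles for replicates 1, 2 and 3, and grey bars the range of the 0 h samples. OS and AD do not overlap for any of the 28 genes, and the blue circle (AD_12h_1) lies apart from the other AD samples for several of them.

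Of the 14 genes lower in OS, 8 encode secreted proteins. Igfbp5, which binds insulin-like growth factors, showed the largest difference of the 28 with all 6 samples, whereas without AD_12h_1 that of Ccr1 was larger (5.80). It was at 1.96, 2.24 and 2.44 CPM in the OS samples and 767, 166 and 174 CPM in the AD samples, against 3.87 to 6.67 CPM at 0 h. The groups lay far apart, but AD_12h_1 was over 4 times the other 2 AD samples, and the log2 difference was -6.46 (SE 0.74, adjusted p = 3.7e-08) with it and -5.74 without it. The OS samples held 13, 15 and 16 reads. In the chondrogenic samples Igfbp5 was at 138 to 149 CPM.

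Ptn, a heparin-binding growth factor, also was highest in AD_12h_1, at 11, 11.4 and 12.6 CPM in the OS samples and 344, 163 and 175 CPM in the AD samples (log2 difference -4.09, and -3.74 without that sample). Spon1, a matrix protein of the spondin family, was at 11.4, 10.2 and 10.8 CPM in the OS samples and 202, 209 and 205 CPM in the AD samples, and the AD samples differed little from each other (log2 difference -4.13, SE 0.13, adjusted p = 8.9e-21). Its 0 h level of 36.7 to 40.8 CPM lay between both media. Lum, a collagen-binding proteoglycan, was at 4.07, 1.94 and 2.59 CPM in the OS samples and 20.0, 45.1 and 44.4 CPM in the AD samples and 47.3 to 55.7 CPM at 0 h, so that the low level was that of OS (log2 difference -3.23, adjusted p = 0.0011). Fibin, a secreted protein, was at 2.26, 2.24 and 1.22 CPM in the OS samples and 33.8, 23.9 and 32 CPM in the AD samples (log2 difference -3.42).

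Adamts4, a protease that cuts aggrecan, was at 5.12, 6.88 and 7.16 CPM in the OS samples and 55.7, 65 and 55.9 CPM in the AD samples (log2 difference -3.03). AD was close to the 47.9 to 56 CPM of 0 h, and the chondrogenic samples reached 219.7 to 292 CPM. C1s, a protease of complement, was at 3.62, 3.74 and 3.66 CPM in the OS samples and 29.5, 55.8 and 56.2 CPM in the AD samples (log2 difference -3.31). Cxcl6, a chemokine that attracts neutrophils, was at 5.57, 3.74 and 6.86 CPM in the OS samples and 49.3, 94.7 and 101 CPM in the AD samples (log2 difference -3.66, SE 0.67). In both C1s and Cxcl6 AD_12h_1 was the lowest of the AD samples.

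Sesn3, a stress protein under FOXO control that restrains mTORC1, was at 52.6, 50.1 and 44.5 CPM in the OS samples and 518, 758 and 828 CPM in the AD samples (log2 difference -3.79, SE 0.13, adjusted p = 2.9e-20). Plpp3, a phosphatase that degrades lysophosphatidic acid, was at 96.7, 93.6 and 90.0 CPM in the OS samples and 1109, 1320.3 and 1254 CPM in the AD samples (log2 difference -3.70, SE 0.12). At 0 h they were at 109 to 118 and 547 to 552 CPM, between the media. Aox1, an aldehyde oxidase, was at 32.1, 29.1 and 26.5 CPM in the OS samples and 251, 443 and 427 CPM in the AD samples (log2 difference -3.59). Marcks, an actin-binding substrate of protein kinase C, was at 9.49, 7.62 and 9.6 CPM in the OS samples and 65.1, 152 and 137 CPM in the AD samples (log2 difference -3.50).

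Dll1, a ligand of Notch receptors, was at 1.05, 0.598 and 0.305 CPM in the OS samples and 5.85, 35.2 and 27.4 CPM in the AD samples (log2 difference -3.56, and -4.30 without AD_12h_1), with 7, 4 and 2 reads in the OS samples. The gene listed as NEWGENE_620180, which has no other name in the files, was at 5.72, 3.74 and 5.48 CPM in the OS samples and 16.4, 96.3 and 70.9 CPM in the AD samples (log2 difference -3.07, and -3.82 without AD_12h_1). For both, AD_12h_1 lay much nearer to OS than the other AD samples did.

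Of 9 tested genes that respond to glucocorticoids, 3 were called and all 3 were lower in OS, 33.3% of the list beside 13.2% of all tested genes (lower, 6.17% of all). Without AD_12h_1 4 were lower, where 16.9% of all genes were called. The median log2 difference was -0.67. Tsc22d3 (GILZ), a classic glucocorticoid target, was at 66.9, 81.2 and 76 CPM in the OS samples and 369, 348 and 402 CPM in the AD samples and 25.3 to 31.1 CPM at 0 h (log2 difference -2.31, adjusted p = 7.7e-13). Mt2A, a metallothionein induced by glucocorticoids and metals, was at 1000.2, 1083 and 1019.7 CPM in the OS samples and 4021, 3872 and 4738 CPM in the AD samples and 316 to 410.0 CPM at 0 h (log2 difference -2.02, adjusted p = 3.3e-13). For both genes all 6 samples exceeded the 0 h samples, AD the most, and AD_12h_1 stood with the other AD samples. Gadd45a was called at low values, with 5 to 13 reads in the OS samples (log2 difference -2.19).

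Of 11 tested genes that respond to cyclic AMP and its factor CREB, 5 were lower and 1 was higher in OS, 54.5% beside 13.2% of all genes, at a median log2 difference of -0.92. The 5 were the phosphodiesterases Pde4b, Pde7b and Pde10a, the small GTPase Gem and the cytokine Il6, all below 8 CPM in all 6 samples. Pde7b held no reads in OS and 1.17, 3.87 and 4.44 CPM in AD, which is at least 6.91-fold higher in AD against a floor of 3 reads per sample. Il6 was at 0.452, 0.448 and 0.762 CPM in the OS samples and 6.87, 4.42 and 7.22 CPM in the AD samples and 39.3 to 44.1 CPM at 0 h (log2 difference -2.19). Akap12, which tethers protein kinase A, was the higher one, at 11, 13.3 and 12.2 CPM in the OS samples and 3.66, 0.184 and 0.37 CPM in the AD samples (log2 difference 2.74, and 3.37 without AD_12h_1, the highest AD sample). Without AD_12h_1, 6 were lower and 1 was higher, where 16.9% of all genes were called.

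In the insulin and IGF list 3 of 14 tested genes were called, all lower in OS, and the same number without AD_12h_1. The share of 21.4% stands beside 13.2% of all genes, and the median log2 difference was -0.44. They were Igfbp5 and Sesn3 above and Pik3r1, the regulatory subunit of PI3 kinase, at 77.3, 64.9 and 64.9 CPM in the OS samples and 214, 337 and 327 CPM in the AD samples (log2 difference -2.04, adjusted p = 1.7e-13). AD_12h_1 was the lowest AD sample for Pik3r1, and without it the difference was -2.26.

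Of 15 tested feedback regulators of MAP kinase signalling and immediate-early factors, 7 were higher in OS and none was lower, 46.7% beside the 6.99% of all genes that were higher. The median log2 difference was 0.83, and 4 were higher in a fit on the 6 samples alone, with or without a replicate block. Dusp6, which acts on ERK, was at 102, 98.8 and 106 CPM in the OS samples and 33.9, 23.6 and 23.5 CPM in the AD samples (log2 difference 1.90, adjusted p = 1.8e-07), and Dusp10, which acts on p38 and JNK, at 32.4, 36.6 and 31.2 CPM in the OS samples and 7.61, 7.73 and 6.85 CPM in the AD samples (log2 difference 2.03). Klf4, a zinc finger factor, was at 1011, 1000.4 and 972 CPM in the OS samples and 669.9, 360.4 and 363 CPM in the AD samples (log2 difference 1.16). For Jun, a subunit of AP-1, AD_12h_1 at 17.1 CPM fell within the OS range, the other AD samples averaged 3.42 CPM and the OS samples were at 21.1, 17 and 21 CPM (log2 difference 1.55, and 2.23 without AD_12h_1). Klf10 and Spry2 were called at log2 differences of 1.41 and 1.02. Without AD_12h_1 7 were higher and 1 was lower.

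Of 18 tested DNA replication genes, 6 were higher in OS and none was lower, 33.3% beside the 6.99% of all genes that were higher, and 5 were called higher without AD_12h_1, beside 9.26% of all. The median log2 difference was 0.89. With median-ratio scaling and no AD_12h_1, 3 were called higher. Mcm6 and Mcm3, subunits of the replicative helicase, were at 1181, 1246 and 1209 CPM in the OS samples and 483, 395 and 394 CPM in the AD samples for Mcm6 (log2 difference 1.52, adjusted p = 1.5e-11) and 803, 854 and 790.5 CPM in the OS samples and 402, 299 and 282 CPM in the AD samples for Mcm3 (log2 difference 1.33). Cdt1, which loads that helicase, was at 180.3, 202 and 188 CPM in the OS samples and 44.8, 47 and 47.9 CPM in the AD samples (log2 difference 2.01, adjusted p = 4.9e-10). All 3 were lower at 0 h than in either medium, at 94.2 to 102, 63.5 to 73.1 and 17.8 to 20.3 CPM. Gins1 was called at 1.11, and Orc6 and E2f2 at low values and not without AD_12h_1. Mcm4, Rfc4 and Rpa2 missed the threshold of size, at 0.94, 0.93 and 0.99, although Mcm4 passed it without AD_12h_1 (1.03).

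Mitosis and centromere genes gave no call in 28 tested, where 13.2% of all genes were called, and 0 were called by edgeR. Of the 28, 15 had an unadjusted p under 0.05, as did 1862 of all 4363 tested genes. Without AD_12h_1, 6 were called, all higher in OS, 21.4% beside the 9.26% of all genes that were higher, and edgeR and median-ratio scaling called 4 and 3 without it. Leaving out OS_12h_1, OS_12h_3 or AD_12h_3 gave 1 call. Cdc20, which activates the anaphase-promoting complex, was at 318, 338 and 339.9 CPM in the OS samples and 449, 151 and 141 CPM in the AD samples, so that AD_12h_1 was above every OS sample (log2 difference 0.64, and 1.18 without it). Kif22, a chromosome motor, was at 391, 424 and 403 CPM in the OS samples and 362, 167 and 166 CPM in the AD samples (log2 difference 0.91, and 1.28 without AD_12h_1). Ribosome biogenesis genes were called higher in 4 of 17 with all samples and in 9 of 17 without AD_12h_1, and none was lower. These were 23.5% and 52.9% of the list, beside 6.99% and 9.26% of all genes. The count rested on the processing and on single samples, since it was 0 with quantile normalization, 2 with median-ratio scaling, 2 with edgeR and 2 without AD_12h_2. Pno1 and Bysl, which help to assemble the small subunit, had log2 differences of 1.22 and 1.15.

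Of 29 tested genes of amino acid supply and stress of the endoplasmic reticulum (ER), 7 were higher and 1 was lower in OS, 27.6% beside 13.2% of all genes, at a median log2 difference of 0.43. Without AD_12h_1 8 were higher and 1 was lower, and with quantile normalization 4 were higher. Slc7a5, a transporter of large amino acids, was at 329.6, 383 and 374 CPM in the OS samples and 155, 77.7 and 88.3 CPM in the AD samples (log2 difference 1.81, adjusted p = 5.5e-10). Hspa5, the main ER chaperone, was at 6399, 6513 and 6160.2 CPM in the OS samples and 3175, 2459 and 2562 CPM in the AD samples (log2 difference 1.23). Chac1, a glutathione-degrading target of ATF4, was at 33.6, 35 and 35.8 CPM in the OS samples and 9.95, 4.05 and 4.44 CPM in the AD samples (log2 difference 2.42). Ppp1r15a and Slc1a4 were called at 1.72 and 1.26. Creb3l1, a factor of the ER membrane that serves collagen secretion in osteoblasts, was the lower one, at 349, 384 and 360.1 CPM in the OS samples and 983, 1013 and 962 CPM in the AD samples (log2 difference -1.44, adjusted p = 1.3e-07).

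Osteoblast and adipocyte genes did not move in one direction. Of 9 tested osteoblast genes, 2 were higher and 3 lower in OS, with or without AD_12h_1. The share of 55.6%, beside 13.2% of all genes, depended on the processing. None was called higher in a fit on the 6 samples alone, with or without a replicate block, and 1 with quantile normalization, median-ratio scaling or edgeR, or without AD_12h_2 or AD_12h_3. For the lower genes, edgeR called 5 and the blocked fit on the 6 samples 1. Dlx3 and Msx2, homeobox factors of skeletal development, were the higher ones. Dlx3 was at 272, 269.8 and 258 CPM in the OS samples and 190.0, 43.3 and 49 CPM in the AD samples, with AD_12h_1 about 4 times the other AD samples (log2 difference 1.83, and 2.51 without it). Msx2 was at 17.9, 17.5 and 15.1 CPM in the OS samples and 12.9, 5.52 and 5.74 CPM in the AD samples (log2 difference 1.07). Tnfrsf11b, osteoprotegerin, was at 20.3, 25.7 and 19 CPM in the OS samples and 69.3, 85.1 and 106 CPM in the AD samples (log2 difference -1.94) and Mgp, an inhibitor of mineralization, at 143, 152 and 134 CPM in the OS samples and 203, 477 and 524 CPM in the AD samples (log2 difference -1.37), both lower in OS and in both media below the 281 to 325 and 2603 to 2749.6 CPM of 0 h. Ibsp was called lower with 7 to 12 reads in OS.

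Of 19 tested adipocyte genes, 2 were higher and 2 lower in OS, and 3 and 2 without AD_12h_1. The share called was 21.1%, beside 13.2% of all genes, and the median log2 difference was 0.09. Lpl, the lipase that frees fatty acids for uptake, was at 104, 122 and 129 CPM in the OS samples and 253, 1093 and 1028 CPM in the AD samples (log2 difference -2.47, and -3.16 without AD_12h_1). It was at 663 to 777 CPM at 0 h. Dgat2, which completes triglyceride synthesis, was at 22.4, 25.6 and 22.7 CPM in the OS samples and 88.2, 59.3 and 72.2 CPM in the AD samples (log2 difference -1.58). Fabp5, a fatty acid carrier, was at 243, 264 and 259.9 CPM in the OS samples and 132, 69.4 and 73.1 CPM in the AD samples (log2 difference 1.53), and Klf5, an early factor of adipogenesis, at 45.8, 46.8 and 48 CPM in the OS samples and 15.4, 16.9 and 17.6 CPM in the AD samples (log2 difference 1.44), both higher in OS. Fasn, the fatty acid synthase, was at 3676, 3938 and 3759.9 CPM in the OS samples and 4243, 3221 and 3157 CPM in the AD samples and the groups overlapped.

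Cytokine and chemokine genes were called in both directions, 5 higher and 6 lower in OS of 20 tested, 55% beside 13.2% of all genes. In the blocked fit on the 6 samples 3 were higher. Il1rl1, the receptor of interleukin 33, was at 474, 492 and 509 CPM in the OS samples and 115, 57.6 and 61.6 CPM in the AD samples (log2 difference 2.71). The monocyte chemokines Ccl2 and Ccl7 were lower in OS, Ccl2 at 397, 368 and 406 CPM in the OS samples and 1630.2, 1457 and 1484 CPM in the AD samples (log2 difference -1.96) and Ccl7 at 203, 211 and 195 CPM in the OS samples and 1202, 829.9 and 792 CPM in the AD samples (log2 difference -2.18). Csf2 held no reads in AD and 2.86, 3.14 and 3.5 CPM in OS, at least 5.71-fold higher in OS against a floor of 3 reads per sample. Cxcl2 was higher in OS at 2.17. Without AD_12h_1, 4 were higher and 6 lower.

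In the TGF-beta and BMP list 2 of 15 were higher and 4 lower in OS, with or without AD_12h_1, 40% beside 13.2% of all genes. In the blocked fit on the 6 samples 2 were lower, and with quantile normalization 1 was higher. Ctgf (now Ccn2), a matricellular target of TGF-beta and YAP, was at 21.2, 18.1 and 24.2 CPM in the OS samples and 6.87, 0.921 and 1.48 CPM in the AD samples (log2 difference 2.72, and 3.34 without AD_12h_1) and Tgfb1 at 231, 248 and 217 CPM in the OS samples and 129.7, 79.4 and 92.3 CPM in the AD samples (log2 difference 1.23). Inhbb, an activin subunit, was at 248, 265 and 257 CPM in the OS samples and 859, 990.3 and 1001 CPM in the AD samples (log2 difference -1.88) and the coreceptor Tgfbr3 at 999.9, 980.4 and 1001 CPM in the OS samples and 1993, 2479 and 2453 CPM in the AD samples (log2 difference -1.21), both lower in OS. The BMP-responsive factors Atoh8 and Id2 were also lower, at -2.34 and -1.06, but Id2 was not called without AD_12h_1 (-0.78).

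In the Wnt list 1 of 19 was higher and 2 were lower, a share of 15.8% near the 13.2% of all genes. The higher call was lost with quantile normalization, with median-ratio scaling and without AD_12h_3, and edgeR called 4 higher and 4 lower. Without OS_12h_1 2 were higher. Without AD_12h_1 edgeR called 0 higher and 6 lower, and median-ratio scaling 0 and 4. Lgr5, a receptor for R-spondins, was at 5.27, 3.29 and 4.27 CPM in the OS samples and 52.2, 20.8 and 18.5 CPM in the AD samples (log2 difference -2.44). Frzb, a secreted Wnt antagonist, was at 0, 0 and 0.152 CPM in the OS samples and 3.36, 4.05 and 3.52 CPM in the AD samples (log2 difference -2.14), and Nkd1, an inhibitor inside the cell, was higher at 1.04. Without AD_12h_1, 1 was higher and 3 were lower.

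Of 26 tested actin and contractile genes, 5 were higher and 1 lower in OS, and 7 and 1 without AD_12h_1. The share called was 23.1%, beside 13.2% of all genes, and the median log2 difference was 0.30. Cyr61 (now Ccn1), counted in this list although it encodes a matricellular protein, was at 206, 196 and 213 CPM in the OS samples and 47, 13.6 and 16.8 CPM in the AD samples (log2 difference 3.15, adjusted p = 5.7e-10). Cnn1, the smooth muscle calponin, was at 71.1, 74.4 and 74.3 CPM in the OS samples and 24.4, 13.3 and 13.9 CPM in the AD samples (log2 difference 2.08). Actn4, an actin cross-linker, was at 499.6, 549 and 529.7 CPM in the OS samples and 251, 133 and 131 CPM in the AD samples (log2 difference 1.68). Des, a muscle intermediate filament protein, was called higher at low values, and Cald1 was lower at -1.05 with overlapping groups. The call of Cald1 was lost in 8 of 18 alternatives, among them quantile normalization, a fit on the 6 samples alone and leaving out OS_12h_1, OS_12h_2, AD_12h_2 or AD_12h_3.

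Of 26 collagen and other matrix genes, 2 were higher and 4 lower in OS, 23.1% beside 13.2% of all genes, and 4 and 5 without AD_12h_1. In a fit on the 6 samples alone 2 were lower, and with edgeR 7. With a replicate block in the fit on the 6 samples 1 was higher and 2 were lower. Besides Spon1 and Lum, Lama5, a laminin chain of basement membranes, was at 3003, 3250.4 and 3096 CPM in the OS samples and 866, 572 and 561 CPM in the AD samples (log2 difference 2.25, adjusted p = 3.8e-11), and Lox, which cross-links collagen, at 41.1, 45.1 and 44.6 CPM in the OS samples and 29.1, 9.76 and 13.3 CPM in the AD samples (log2 difference 1.42). Lamc1 and Col5a2 were lower at low values. Of 17 proteases and inhibitors, 2 were higher and 3 lower, 29.4%, and 4 and 3 without AD_12h_1. None was called higher in a fit on the 6 samples alone, and 1 with edgeR, without AD_12h_2 or without AD_12h_3. Mmp2, a gelatinase, was at 4547, 5026 and 4753 CPM in the OS samples and 9202, 13827 and 14135 CPM in the AD samples (log2 difference -1.35), lower in OS like Adamts4 and Serping1 (-1.02), of which Serping1 was not called without AD_12h_1 (-0.82). Mmp16 and Cst6 were higher at 1.52 and 1.39, and Cst6 at 2.08 without AD_12h_1.

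Among stromal and mesenchymal markers, 2 of 6 were called and both were higher in OS, with or without AD_12h_1, 33.3% beside 13.2% of all genes. Cd44, the hyaluronan receptor, was at 1219, 1186 and 1202 CPM in the OS samples and 405, 368 and 381 CPM in the AD samples (log2 difference 1.64) and the integrin chain Itgb1 at 12279, 12110.1 and 12284 CPM in the OS samples and 6033, 4522 and 4362 CPM in the AD samples (log2 difference 1.31). Of the 6 chondrocyte genes, Sox9 was called higher in OS, at 20.2, 21.2 and 13.4 CPM in the OS samples and 5.85, 5.89 and 5.0 CPM in the AD samples (log2 difference 1.53), below the 46.6 to 50.8 CPM of 0 h and the 564 to 718 CPM of the chondrogenic samples. Without AD_12h_1, 2 were higher and 1 was lower, and without OS_12h_2 or OS_12h_3 2 were higher. With edgeR 1 was higher and 2 were lower, and 2 and 2 without AD_12h_1. The share of 16.7% is near the 13.2% of all genes. Both called clock genes of 6 tested, Bhlhe40 and Bhlhe41, were higher, 33.3% beside the 6.99% of all genes that were higher, and 1 remained called in a fit on the 6 samples alone, without OS_12h_1 and without AD_12h_2. These genes were already counted in the hypoxia and glycolysis list, and only 3 of the 6 clock genes had a positive log2 difference. Of 13 interferon genes 1 was lower, Ifi44, at low values, a share of 7.69% near the 6.17% of all genes that were lower, and without AD_12h_1 1 was higher and none lower. Leaving out OS_12h_1 gave 1 higher and 2 lower. None was lower without OS_12h_3 or in a fit on the 6 samples alone, with or without a replicate block.

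Sterol genes gave no call in 16 tested, with 7 at an unadjusted p under 0.05 and 0 by edgeR, and 2 (12.5%) were called higher without AD_12h_1, beside 9.26% of all genes. Respiratory chain genes gave none in 35, with 9 at an unadjusted p under 0.05 and 0 by edgeR, and 1 (2.86%) was called lower without that sample, beside 7.68% of all genes, or without OS_12h_3. With all samples 13.2% of all genes were called, and 1862 of all 4363 tested genes had an unadjusted p under 0.05. The median log2 differences of these lists were 0.29 and 0.16. None of the 3 macrophage, 2 endothelial and 2 osteoclast markers tested was called, by limma or edgeR, and none had an unadjusted p under 0.05. No blood marker passed the filter.

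**Figure D4:**
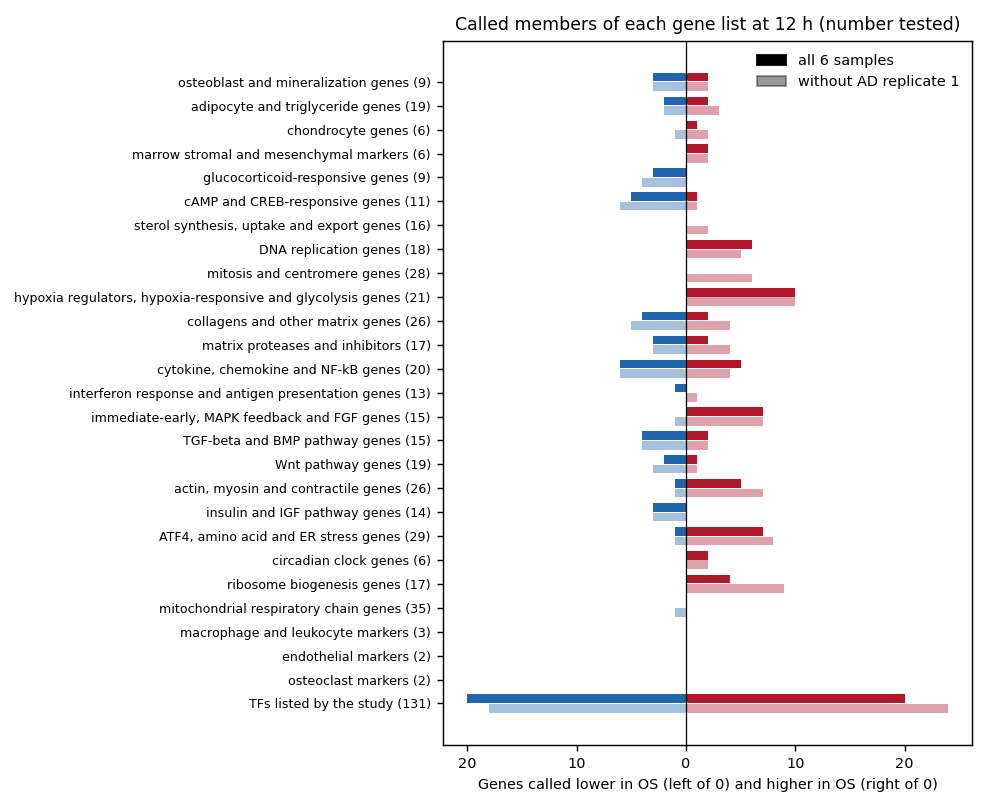
Number of genes in each list called lower in OS (blue, left of 0) and higher in OS (red, right of 0), with all 6 samples (dark bars) and without AD_12h_1 (light bars), and the number tested in brackets. The hypoxia and glycolysis list has 10 genes higher and 0 lower either way, whereas the mitosis list goes from 0 to 6 genes.

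The transcription factors (TFs) of the study form a list that the study drew from these same samples, by their change from 0 h, so its count is not independent evidence. Of 131 tested, 20 were higher and 20 lower in OS, together 30.5% beside 13.2% of all genes. Without AD_12h_1 24 were higher and 18 lower, where 16.9% of all genes were called. In a fit on the 6 samples alone 12 were higher, and 11 with a replicate block. Besides Bhlhe40 and Hopx, the largest were Ehf, Pax8, Snai2 and Atoh8. Ehf, an epithelial ETS factor, held no reads in OS and 4.83, 9.58 and 7.22 CPM in AD, at least 15.8-fold higher in AD against a floor of 3 reads per sample. Pax8, a paired-box factor of thyroid and kidney, was at 24.7, 20.9 and 22.2 CPM in the OS samples and 3.8, 2.95 and 3.33 CPM in the AD samples (log2 difference 2.44). Snai2, a repressor of epithelial genes, was at 9.19, 6.73 and 9.14 CPM in the OS samples and 21.6, 65.9 and 82.5 CPM in the AD samples (log2 difference -2.44, and -3.01 without AD_12h_1). Atoh8, a basic helix-loop-helix factor, was at 2.26, 5.38 and 3.5 CPM in the OS samples and 38.9, 16.9 and 15.9 CPM in the AD samples (log2 difference -2.34, and -1.94 without AD_12h_1).

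The comparison was set beside that of the same media at 3 h and 72 h. OS and AD differed by 334 genes at 3 h (7.66%) and 599 at 72 h (13.7%), against 574 at 12 h. Of the genes called at 12 h, 17.4% were called in the same direction at 3 h, which is 29.9% of those called at 3 h. The corresponding shares for 72 h were 29.8% and 28.5%. A call in the same direction at all 3 times was found for 43 genes, and 335 of the 574 were called at neither other time. A call at one time and none at another does not show a change, so the differences between times were tested. The OS to AD difference at 12 h differed from that at 3 h for 484 genes (11.1%) and from that at 72 h for 621 genes (14.2%). Among the 574 these numbers were 267 and 248, and 142 genes differed from both.

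The 28 genes of largest difference followed several courses. For Dusp4 the log2 difference was 0.54 at 3 h and 0.02 at 72 h, and the 12 h difference exceeded them by 3.34 and 3.86 (adjusted p = 1.6e-09 and 7e-11). Gch1 and Cyp3a9 had the same pattern, with -0.19 and -0.12 at 3 h and -0.57 and 0.12 at 72 h, and both tests passed for each. Gldn was apart from 3 h on, at 5.20, and its 12 h difference was not called as different from that at 3 h (adjusted p = 0.96). Igfbp5 was at -0.46 at 3 h and -6.44 at 72 h, where the AD samples ranged from 380.5 to 14956 CPM. With all samples Dll1 was lower in OS by a similar size at all times, with -3.64, -3.56 and -3.74, but its 12 h difference was larger without AD_12h_1. Plpp3 was lower at 3 h and 12 h, at -2.50 and -3.70, and at 0.46 at 72 h (12 h against 72 h, adjusted p = 1.1e-17).

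**Figure D5:**
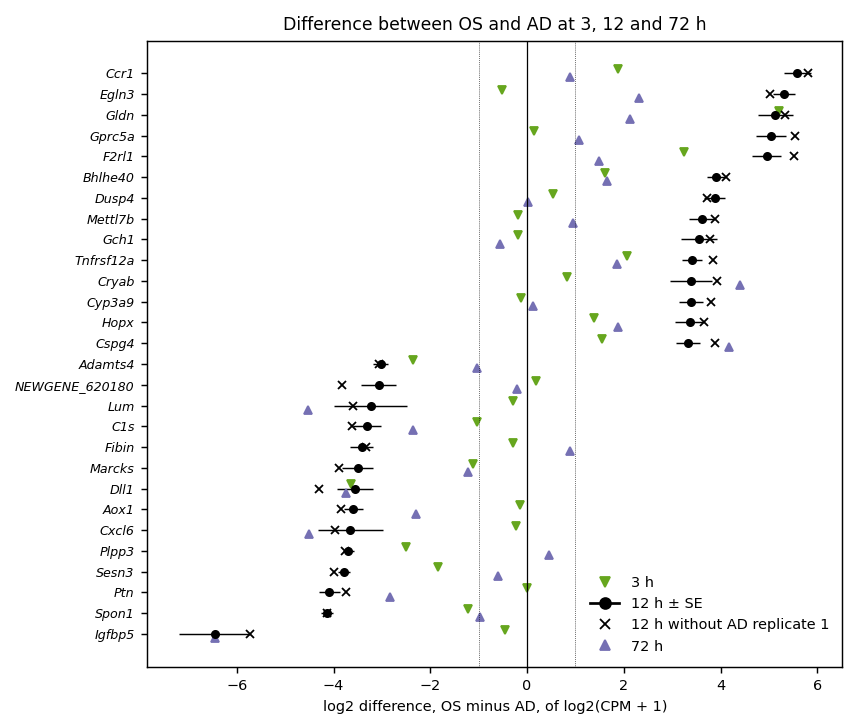
Log2 difference between OS and AD, of log2(CPM + 1), for the 28 genes at 3 h (green), 12 h (black circles, bars ± 1 SE; crosses without AD_12h_1) and 72 h (purple). Dotted lines mark the size threshold of 1. Dusp4 lies near 0 at 3 and 72 h and at 3.88 at 12 h, whereas with all samples Dll1 lies between -3.56 and -3.74 at all 3 times.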

How the data were processed

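RNA was measured in 30 rat BMSC samples, 10 groups of 3. Per the labels, the authors trimmed with Trimmomatic, aligned with HISAT2 and assembled with StringTie. Versions and genome build were not given in the sources used here. Library preparation is described differently in the labels (ribosomal RNA removal) and the paper (mRNA). The authors deposited 1 value per gene named FPKM, but the values are CPM: 100% were whole multiples (within 0.02) of 1 read, which gave the reads.

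The 10803 values per sample were summed to 9999 names (729 occurred more than once). The 4363 genes that reached 1 CPM in 3 or more of the 30 samples entered limma 3.58.1 (trend; R 4.3.3) on log2(CPM + 1), in 1 model of 10 groups without covariates, with Benjamini-Hochberg adjustment over all tested genes. Differences between time points were contrasts of the same model. Log2 differences are on this scale and understate changes of low genes. Beside this, edgeR 4.0.16 was run on the recovered reads. On simulated data for OS_12h against AD_12h, limma recovered 148 of 200 genes changed by a log2 of 2 among 4363, and 76 of 76 at 10 CPM or more. The simulation used the same spread for all genes and held no deviating sample like AD_12h_1, so recovery in the real comparison may differ. Intervals and floors (3 reads) cover counting error only.

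The genes named were the 14 with the largest difference in each direction among called genes with non-overlapping groups, and the called members of fixed gene lists (up to 6 a list, or all). Genes outside the rule were picked after their values were seen. The members and lists were chosen with earlier results of these data known. The labels name no batch. Replicate pairs differed by more than sampling noise, and none was merged. Figures were made with matplotlib 3.10.9 in Python 3.11.15. Promoters are from RefSeq (GRCr8), matched by symbol.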

Additional observations from a re-analysis of the deposited data

Results flagged for a closer look

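The difference between OS and AD changed with time, by the test of the difference itself, for 484 genes between 12 h and 3 h and for 621 genes between 12 h and 72 h. Without AD_12h_1 the counts were 625 and 669. Some genes were called in opposite directions at 2 times.

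Against 3 h, 6 genes called at 12 h had the opposite call. These genes, and those against 72 h below, were chosen by opposite calls, which required a large change. The p-values of the changes are therefore no separate evidence. Chac1 was lower in OS at 3 h (log2 difference -1.20) and higher at 12 h (2.42), a change of 3.62 (SE 0.25, adjusted p = 1e-11). Jun went from -2.20 to 1.55, a change of 3.74 (adjusted p = 1.2e-07), with AD_12h_1 within the OS range. Dlx3 went from -1.20 to 1.83, a change of 3.03 (adjusted p = 3.4e-06). Bcar3, an adaptor of integrin signalling, went from -1.38 to 1.12, a change of 2.51. Dok2 and Ppp1r3g, at low values, changed by -2.29 and 2.51, and Ppp1r3g was not called at 12 h without AD_12h_1.

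Against 72 h, 11 genes had the opposite call. Meox2, a homeobox factor, was lower in OS at 12 h, at 64.8, 70.1 and 73.3 CPM in the OS samples and 478, 281 and 280.3 CPM in the AD samples, and higher at 72 h (log2 difference 1.21), a difference of -3.46 (SE 0.27, adjusted p = 5e-11). Apln, the peptide apelin, was at 1.28 at 12 h and -2.53 at 72 h, a difference of 3.80 (adjusted p = 2e-07). Ifrd2 and Rnd1 were also higher at 12 h and lower at 72 h, with differences of 2.44 and 2.99. Lower at 12 h and higher at 72 h were Cavin2 (-4.27), Chrm2 (-4.85), Map2k6 (-3.19), Id2 (-2.37), Mogat2 (-2.39), Tdo2 (-3.00) and Tsc22d1 (-2.58). Of these 7, all but Id2 and Tsc22d1 were listed below 2.5 CPM in every OS sample. Id2, Mogat2 and Tdo2 were not called at 12 h without AD_12h_1. These genes were picked after their values were seen.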

How the results depend on the processing

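The count of 574 genes called at 12 h was between 401 and 869 over 18 alternatives. Leaving out each replicate in turn gave 513 to 739 genes, 273 to 404 higher and 240 to 335 lower, with the largest counts without AD_12h_1. The count of genes lower in OS, 269, moved by more than 1.5 times in 4 alternatives. It was 429 with a pseudocount of 0.1 (373 higher), 453 with edgeR (766 in all), 486 with edgeR without AD_12h_1 (869 in all, 383 higher), and 168 with a replicate block in a fit on the 6 samples (401 in all). With median-ratio scaling 262 were higher and 277 lower, and 328 and 360 without AD_12h_1, so the majority changed side. The last 2 fits without AD_12h_1 were chosen after seeing the data. The cause of these shifts was not tested. Of the 504 values that the 28 named genes took, 503 kept direction and call, and none reversed. NEWGENE_620180 missed the threshold under the replicate block in the fit on the 6 samples. Of the 1008 counts that the gene lists took, 113 moved by more than 1.5 times. By setting, 11 to 13 of 56 did so with edgeR, without AD_12h_1 and with the replicate block in the fit on the 6 samples, 8 in that fit without the block, 7 with quantile normalization and 9 with a pseudocount of 0.1. The counts against 3 h and 72 h stayed within 1.5 times of 484 and 621 in every alternative, at 343 to 625 and 446 to 669. Pairing by replicate number was not seen at 12 h, where deviations of equally numbered OS and AD samples had correlations of -0.04, -0.04 and 0.03. The correlations span all tested genes, many of them low, so a weak pairing could go unseen. The replicate block gave 575 genes in the model of all samples. In the fit on the 6 samples it gave 401 genes, against 504 without the block. Genes at a few reads are limited by depth, where 3 reads were 0.439 to 0.555 CPM.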

Other observations

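The chondrogenic samples at 12 h, which are compared with neither medium by a test here but share the model that gave the variance and the filter, were placed beside both media. Of the 305 genes higher in OS their mean was nearer to AD for 196 and nearer to OS for 109, and of the 269 genes lower in OS it was nearer to AD for 123 and nearer to OS for 146. It lay between both media for 171 and 185 genes.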
